A study of Arabidopsis thaliana with 4 samples.

Results

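The genes described here set the adaxial, or upper, side of the Arabidopsis leaf. The set holds 9 genes, each chosen by its locus identifier and each represented by 1 probe among the 37478 non-control probes of the array, which name 25665 loci. They are the HD-ZIP III genes PHB (At2g34710), PHV (At1g30490), REV (At5g60690), CNA (At1g52150) and HB8 (At4g32880), the partners AS1 (At2g37630) and AS2 (At1g65620), and the little zipper genes ZPR1 (At2g45450) and ZPR3 (At3g52770). The rule used no measured value, but earlier results of these data were known when the set was chosen. All 9 probes were well above background in both genotypes on all 4 arrays, though the ZPR3 signal was near the floor.

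The mutant ang3 was compared with its control Ler (Landsberg erecta), an accession that carries a mutant ERECTA allele. Each of 4 two-colour arrays was hybridised with RNA of both genotypes, where ang3 carried Cy5 on replicates 1 and 3 and Cy3 on replicates 2 and 4. The series text describes dye swaps on biological replicates, with 4 harvested for each genotype. It does not say which arrays form a swap, whether those share an extract, or how many plants were pooled, so p-values may measure partly technical spread. Both genotypes had 3 days of cold (vernalization) and then grew in vitro at 21 °C with 16 h of light, with no other treatment named. The material was the green part of young seedlings, which mixes meristem, leaf primordia, leaves and cotyledons. The sample labels give stage 1.02 and name shoot apex, while the series text gives stage 1.03.

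As background, a leaf starts as an outgrowth of the shoot meristem whose side nearest the meristem becomes adaxial. HD-ZIP III proteins are transcription factors with a homeodomain, a leucine zipper and a START lipid-binding domain, and they promote adaxial fate, meristem formation and vascular patterning. Their transcripts are cleaved on the abaxial side by a pair of related microRNAs. AS1, a MYB protein, and AS2, a LOB-domain protein, act as a complex that represses class I KNOX and abaxial genes. Little zipper proteins bind HD-ZIP III proteins through the zipper and keep them from binding DNA, while their own genes are switched on by HD-ZIP III proteins. The ang3 mutation is known as an allele of RPL5B, which encodes a protein of the large ribosomal subunit, and several ribosomal protein mutants enhance the polarity defects of as1 and as2.

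Of the 9 adaxial genes, AS1 alone passed the test, and it was higher in ang3 by 1.32-fold. None of the 5 HD-ZIP III genes passed, and their mean log2 ratios lay between -0.01 and 0.08. AS2 and both little zipper genes also did not pass. Each ratio sets ang3 over Ler and is on the log2 scale, so a positive value means more transcript in ang3, and a gene passed at a limma adjusted p under 0.05 over all 20155 features tested. These were 18450 named loci and 1705 probes that the files do not name, and shares of all genes tested count both. Over all of these 15% were called higher and 11.2% lower, or 26.2% in either direction, so 1 call among 9 genes is no excess. The median ratio of the 9 genes was 0.07, against 0.01 for everything tested. In whole tissue, fewer cells that express a gene and less of its RNA per cell cannot be told apart.

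**Figure D1:**
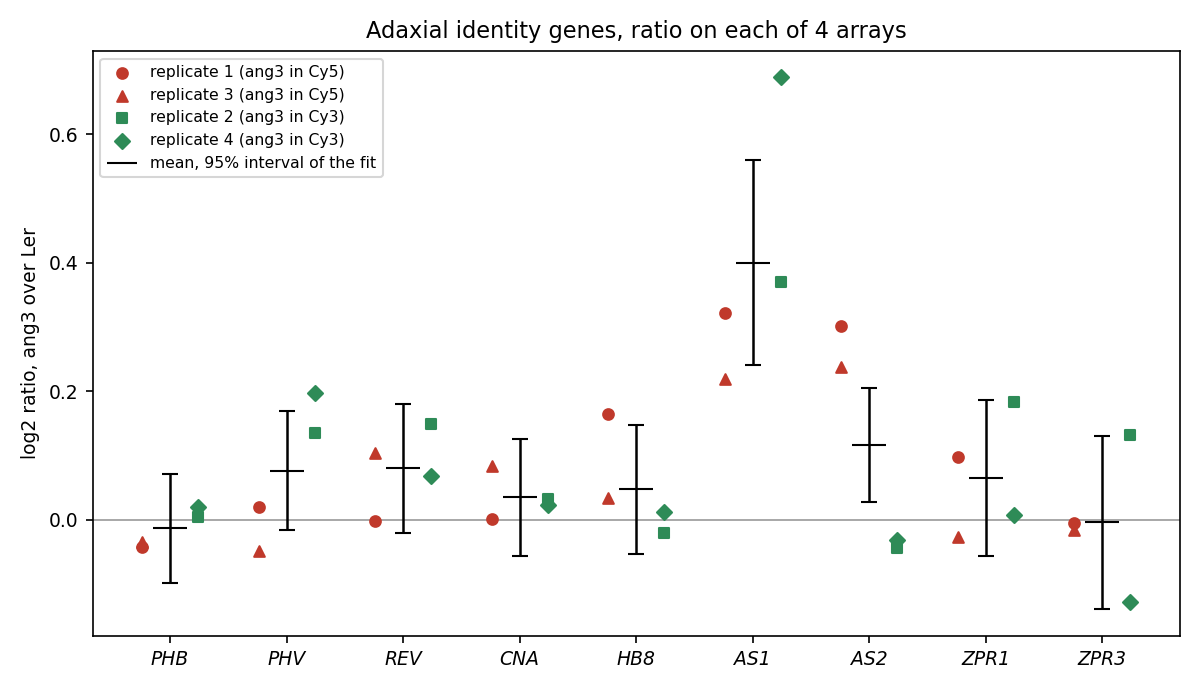
The log2 ratio of ang3 over Ler (vertical axis) is plotted for the 9 adaxial genes (horizontal axis), with 1 point for each of the 4 arrays, coloured by the dye that held ang3, and a black bar for the mean with the 95% interval of the limma fit. AS1 is the gene whose 4 points all lie clearly above 0, from 0.22 to 0.69, and AS2 splits by dye orientation.

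The HD-ZIP III genes form a family of 5 transcription factors in Arabidopsis, in which PHB, PHV and REV act redundantly in leaf polarity. REV, which is also required for axillary meristems and vascular bundles, had log2 levels of 10.76, 10.80, 10.83 and 10.87 in ang3 on replicates 1 to 4, against 10.76, 10.65, 10.73 and 10.80 in Ler. Its ratios were -0.00090, 0.15, 0.10 and 0.07, so 3 arrays were above 0, and the levels of the genotypes overlapped. The mean ratio was 0.08 (SE 0.039, SD 0.063, n = 4; limma adjusted p = 0.19), with a 95% interval of 0.986- to 1.13-fold.

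PHV had levels of 11.64, 11.77, 11.65 and 11.86 in ang3, against 11.62, 11.63, 11.70 and 11.66 in Ler. Its ratios were 0.02, 0.14, -0.05 and 0.20, higher on the arrays with ang3 in Cy3 than on those with ang3 in Cy5, and the mean was 0.08 (SE 0.036, SD 0.11, n = 4; limma adjusted p = 0.18). PHB, whose gain-of-function alleles make leaves adaxial on both sides, had levels of 10.47, 10.61, 10.55 and 10.67 in ang3, against 10.52, 10.60, 10.59 and 10.65 in Ler. The PHB ratios of -0.04, 0.0047, -0.03 and 0.02 fell on both sides of 0, with the smallest spread of the 9 genes (mean -0.01, SE 0.033, SD 0.030, n = 4; limma adjusted p = 0.80). The 95% interval for PHB ran from 0.934- to 1.05-fold.

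CNA and HB8, which form the other branch of the family, are expressed in the meristem and in procambium. CNA had levels of 9.49, 9.47, 9.51 and 9.35 in ang3, against 9.48, 9.44, 9.43 and 9.32 in Ler. All 4 CNA ratios were above 0, from 0.0021 to 0.08, but the mean of 0.04 was as large as its error (SE 0.035, SD 0.035, n = 4; limma adjusted p = 0.49). HB8, an early marker of procambium, had levels of 11.77, 11.75, 11.73 and 11.71 in ang3, against 11.60, 11.77, 11.69 and 11.70 in Ler. Its ratio was 0.17 on replicate 1 and between -0.02 and 0.03 on the others, with a mean of 0.05 (SE 0.039, SD 0.082, n = 4; limma adjusted p = 0.40).

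Across the family 15 of 20 single-array ratios were above 0, within a range of -0.05 to 0.20. Of all genes tested, 57.4%, 51.1%, 54.7% and 50.9% were above 0 on replicates 1 to 4. The 20 values come from 5 genes on the same 4 arrays and are not independent. The intervals of the 5 genes together reached from 0.934- to 1.13-fold, and a larger change of any of them was outside its 95% interval. That a gene did not pass does not show equal levels. Within the closest group REV lay above PHB on 4 of 4 arrays (mean difference of the ratios 0.09, SD 0.056), whereas REV and PHV differed by 0.0042 (SD 0.12) with 2 arrays on each side.

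**Figure D2:**
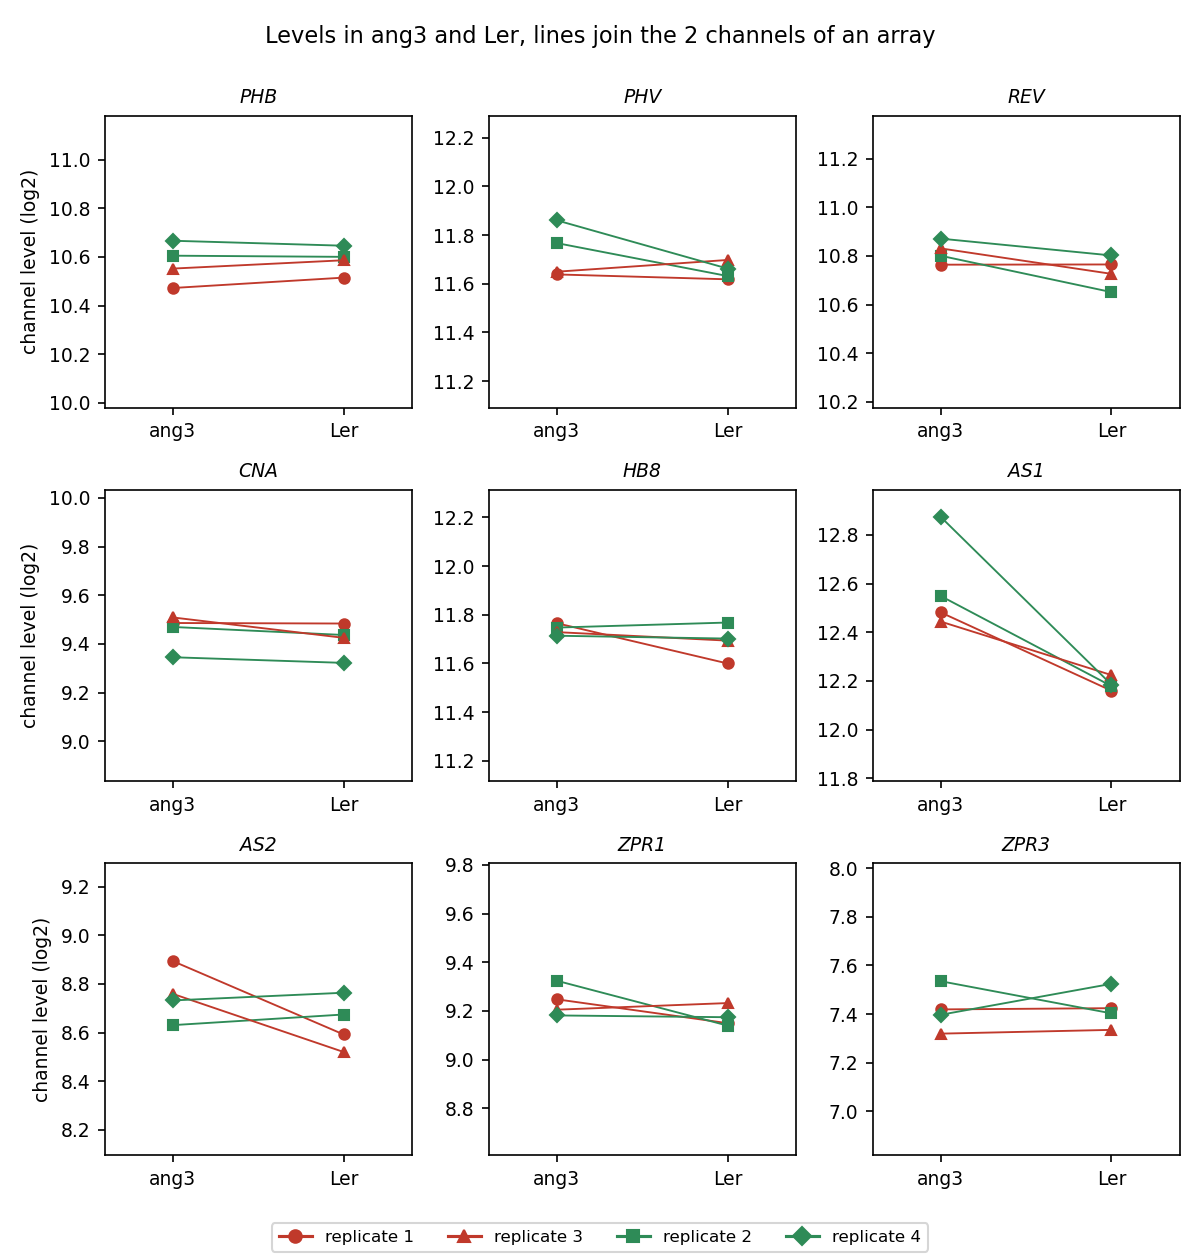
Each panel shows the normalised channel level of 1 adaxial gene (vertical axis, log2, spanning the same 1.2 units in every panel) in ang3 at the left and Ler at the right, with a line joining the 2 channels of an array. The AS1 lines all slope down towards Ler, where the 4 levels lie within 12.16 to 12.22, while those of the HD-ZIP III genes are nearly level.

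AS1, which encodes the MYB partner of the complex, had levels of 12.48, 12.55, 12.44 and 12.87 in ang3, against 12.16, 12.18, 12.22 and 12.18 in Ler. Every ang3 level lay above every Ler level, and the spread was in ang3 (SD 0.20) more than in Ler (SD 0.027). AS1 was the 1 gene of 9 without overlap, against 22.5% of all genes measured. Its ratios were 0.32, 0.37, 0.22 and 0.69 on replicates 1 to 4. The transcript rose by 0.40 (SE 0.062, SD 0.20, n = 4; limma adjusted p = 0.015), a 1.32-fold difference with a 95% interval of 1.18 to 1.47. Of all genes tested, 6.03% had a larger absolute ratio.

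Replicate 4 gave the highest AS1 ratio, and without it the ratio was 0.32 (limma adjusted p = 0.039). The call was lost without replicate 1 (0.37, limma adjusted p = 0.054) and without replicate 3 (0.43, limma adjusted p = 0.070). The share of all genes called was 14.4% without replicate 1 and 2.66% without replicate 3. The 3 genes with ratios nearest to those of AS1 over the 4 arrays were BBX32 (AT3G21150), AT5G17600 and LOG5 (AT4G35190), with root mean square differences of 0.048, 0.056 and 0.058.

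AS2, the LOB-domain partner, which is expressed on the adaxial side, gave another picture. AS2 levels were 8.89, 8.63, 8.76 and 8.73 in ang3, against 8.59, 8.67, 8.52 and 8.76 in Ler, and the ranges overlapped. Where ang3 carried Cy5, on replicates 1 and 3, the ratios were 0.30 and 0.24, and where it carried Cy3, on replicates 2 and 4, they were -0.04 and -0.03. The mean was 0.12 (SE 0.034, SD 0.18, n = 4; limma adjusted p = 0.065) and did not pass. AS2 was the 1 adaxial gene of 9 whose dye term had an unadjusted p under 0.05 in the limma fit, as had 15% of all genes tested. After adjustment its dye term did not pass (limma adjusted p = 0.25), and 0 of all genes tested did (0%). With the dye term left out the AS2 adjusted p was 0.30 at the same ratio. Dye orientation and the pairs of replicates cannot be told apart.

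The AS2 ratio was lower than that of AS1 on 3 of 4 arrays, by 0.41 and 0.72 on replicates 2 and 4, and the 2 partners were nearly level on replicates 1 and 3, where AS2 minus AS1 was -0.02 and 0.02. AS1 leaned the opposite way to AS2 between orientations, with means of 0.27 where ang3 was in Cy5 and 0.53 where it was in Cy3. The dye term of AS1 had an unadjusted p of 0.092 in the limma fit and did not pass (limma adjusted p = 0.39). As 0 of all genes tested passed for this term, the adjusted value does not show that the lean is small.

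**Figure D3:**
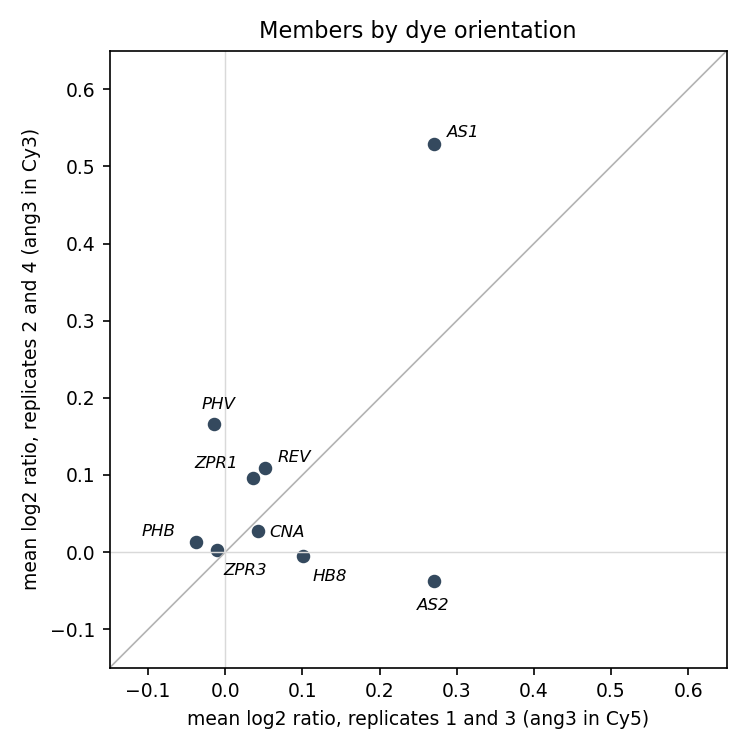
Each point is 1 adaxial gene, placed by its mean log2 ratio of ang3 over Ler on replicates 1 and 3 (horizontal axis, ang3 in Cy5) and on replicates 2 and 4 (vertical axis, ang3 in Cy3), and the diagonal marks equal values. AS1 is above 0 on both axes, AS2 is at 0.27 on one and -0.04 on the other, and the other 7 genes lie near the origin.

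The little zipper genes, which are switched on by HD-ZIP III proteins, did not pass. ZPR1 had levels of 9.25, 9.32, 9.20 and 9.18 in ang3, against 9.15, 9.14, 9.23 and 9.17 in Ler. The ratios of 0.10, 0.18, -0.03 and 0.0074 gave a mean of 0.07 (SE 0.047, SD 0.095, n = 4; limma adjusted p = 0.35). ZPR3, which is active in the meristem, had levels of 7.42, 7.54, 7.32 and 7.40 in ang3, against 7.42, 7.40, 7.34 and 7.52 in Ler. Replicate 2 was above 0 (0.13), replicate 4 below (-0.13) and the others within 0.02 of it, so that the mean was -0.0039 (SE 0.053, SD 0.11, n = 4; limma adjusted p = 0.96). This was the widest interval of the HD-ZIP III and zipper genes, from -0.14 to 0.13 on the log2 scale. The ZPR3 signal was near the floor, as WUS, not above background on any array, read 6.88 in ang3 and 6.91 in Ler. With the processed signals the ZPR3 ratio was -0.19 (limma adjusted p = 0.31), so its value near 0 depends on the processing. Of the other little zipper genes, ZPR2 had a ratio of 0.11 and did not pass (limma adjusted p = 0.12).

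All 9 genes together had the same sign on 4 arrays in 2 cases, AS1 and CNA, against 44.1% of everything tested. Their standard errors ran from 0.033 to 0.062 around a median of 0.041 for all genes tested, so they were measured about as closely as the rest. On single arrays the median of the 9 was 0.02, 0.13, 0.03 and 0.02 on replicates 1 to 4, against medians of 0.02, 0.0049, 0.02 and 0.0039 for everything tested. In the authors' deposited values, 2 of 36 gene-by-array p-values were under 0.05, for AS1 on replicate 4 (0.0011) and AS2 on replicate 1 (0.037), against 10.5%, 14.3%, 15.5% and 12.6% of all genes tested on replicates 1 to 4. None of the 36 deposited ratios exceeded the authors' limit of 1 on the log2 scale, which together with that p was met by 2.03%, 4.07%, 3.73% and 3.27% of all genes tested.

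Loess normalisation sets the centre of each array at every signal level, and with another centring 8 of the 9 adaxial genes had higher ratios. With each array centred on its median, the median of all genes was 0.14 in place of 0.01, and 34.5% of all genes were called higher. In that setting 7 of the 9 adaxial genes were called higher, all but PHB and ZPR3, with a median of 0.23, or 0.09 above that of all genes. Relative to that median AS1 was at 0.44, REV at 0.13, PHV at 0.12 and PHB at 0.03. ZPR3 was at -0.015 in that setting, against -0.0039 with loess, and at -0.16 relative to the median of all genes.

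**Figure D4:**
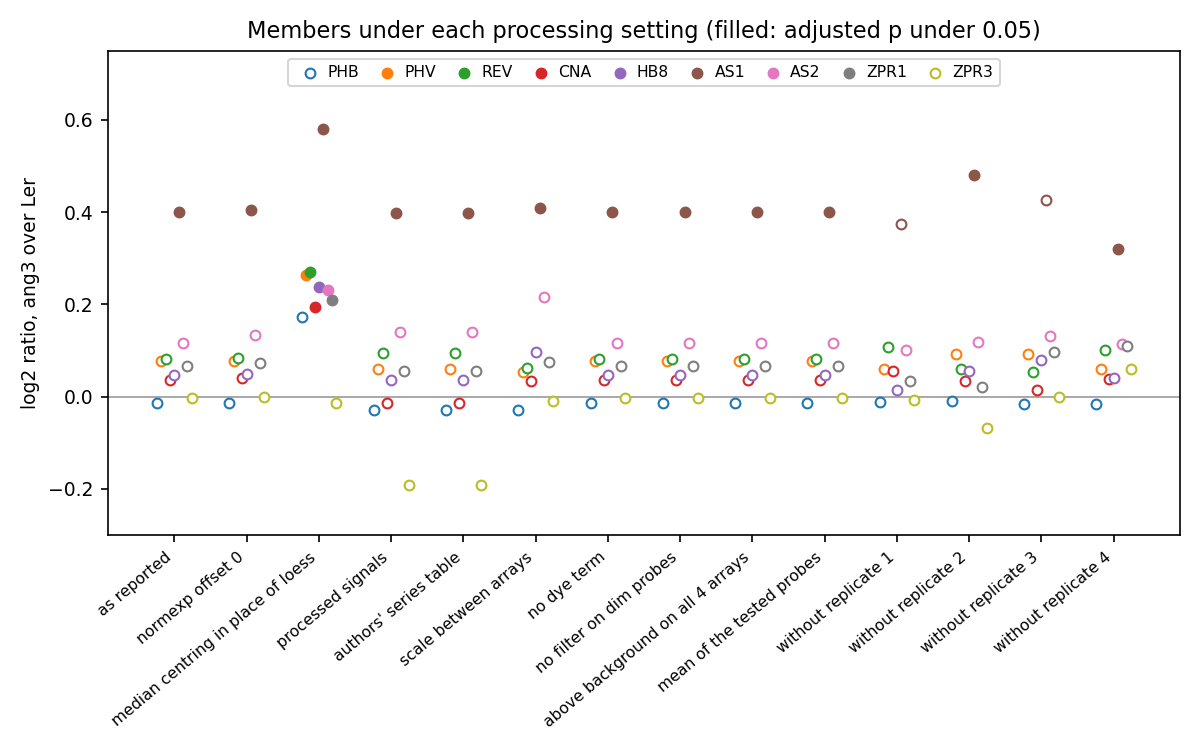
The log2 ratio of ang3 over Ler (vertical axis) is shown for the 9 adaxial genes under the reported processing and each of 13 alternatives (horizontal axis), with filled points where the limma adjusted p was under 0.05. AS1 stays between 0.32 and 0.58, and under median centring 8 of the 9 genes move up while ZPR3 stays near 0, at -0.015.

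Genes that act with, upstream or downstream of the adaxial set were taken from 8 lists of 76 loci, of which 71 were tested. Of these, 24 rose, 1 fell and 46 did not pass, with a median ratio of 0.11, against 15% called higher, 11.2% called lower and a median of 0.01 over all genes tested. The lists were written from general knowledge with earlier results of these data known, so their shares are a description and not a test. Without replicate 3 the related genes called higher were 3 (YAB5, HDT1 and RPL9C), and without replicate 2 they were 12. Calls over all genes tested fell as well, to 1.86% higher without replicate 3 and 5.78% without replicate 2, so a call lost in these settings does not show a smaller ratio.

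Among 8 genes that AS1 and AS2 are known to repress, 6 rose and 2 did not pass, with a median of 0.24, against 15% called higher and a median of 0.01 for all genes tested. YAB5, of the YABBY family, had ratios of 0.66, 0.34, 0.52 and 0.27 and rose by 0.45 (SE 0.041, SD 0.18, n = 4; limma adjusted p = 0.0079). The YAB5 ratios differed with dye orientation, as 0.66 and 0.52 came from the arrays with ang3 in Cy5. YAB5 lost the call with equalised scale between arrays (0.60, limma adjusted p = 0.053). The auxin response factor gene ARF4 rose by 0.28 and the KNOX gene KNAT1 by 0.32 (limma adjusted p = 0.010 and 0.012). Without replicate 3 their ratios were 0.27 and 0.30, and both lost the call (limma adjusted p = 0.067 and 0.071). The ARF4 ratios were 0.19 and 0.24 where ang3 was in Cy5 and 0.35 and 0.36 where it was in Cy3. The list of genes repressed by AS1 and AS2 shares 5 genes with the abaxial identity list, where 5 of 8 tested genes rose, with 0 lower and a median of 0.17. KAN2, a KANADI gene of abaxial fate, rose by 0.29 (limma adjusted p = 0.014) but differed with dye orientation, with ratios of 0.12 and 0.08 where ang3 was in Cy5 and 0.39 and 0.57 where it was in Cy3. Its call was lost without replicate 1 or 3 (0.28 and 0.30, limma adjusted p = 0.056 and 0.076), with no dye term (limma adjusted p = 0.066), and with the processed signals or the series table (0.32, limma adjusted p = 0.051 in each). Levels of PHB and REV, the opposing adaxial genes, did not pass.

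Of 10 partners and modifiers of AS1 and AS2, 2 rose and 8 did not pass, a share close to the 15% of all genes tested. Both that rose encode plant-specific nucleolar histone deacetylases that work with AS2. HDT1 had ratios of 0.45, 0.96, 0.80 and 0.77 and rose by 0.74 (SE 0.071, SD 0.21, n = 4; limma adjusted p = 0.0081). HDT2 rose by 0.44 (limma adjusted p = 0.013), and the call was lost without replicate 2 or 3 (0.42 and 0.36, limma adjusted p = 0.055 in each). HDA6, a histone deacetylase of another class, had a ratio of 0.10 and did not pass.

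Of 16 ribosomal protein genes whose mutants enhance as1 or as2, 11 rose and 5 did not pass, with a median of 0.32, against 15% called higher and a median of 0.01 for all genes tested. Ribosomal protein genes outside this list were not set beside it, so whether the rise is particular to the enhancers was not tested. RPL9C, known as PIGGYBACK2 from its as1 enhancer allele, rose by 0.42 (SE 0.039, SD 0.26, n = 4; limma adjusted p = 0.0079). It differed with dye orientation, with ratios of 0.65 and 0.64 where ang3 was in Cy5 and 0.26 and 0.13 where it was in Cy3. RPL24B and RPL4D rose by 0.33 and 0.41, and each lost the call without replicate 3 at ratios of 0.34 and 0.38 (limma adjusted p = 0.057 and 0.063). The RPL24B ratios were 0.47 and 0.45 where ang3 was in Cy5 and 0.25 and 0.17 where it was in Cy3. The RPL5B probe itself was at -0.04 (limma adjusted p = 0.70) and does not check the labels. The paralog RPL5A rose by 0.26 (SD 0.23, limma adjusted p = 0.018) but differed with dye orientation. Its ratios were -0.0060 and 0.15 where ang3 was in Cy5 and 0.51 and 0.39 where it was in Cy3.

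Targets of the HD-ZIP III protein REV mostly did not pass. Of 9 tested genes 1 fell and 8 did not pass, with a median of 0.03, and 11.2% of all genes tested were called lower, so 1 such call is no excess. HAT3, an HD-ZIP II gene that REV switches on and that promotes adaxial fate, was the gene that fell. Its ratios were -0.30, -0.28, -0.31 and -0.22, a mean of -0.28 (SE 0.034, SD 0.038, n = 4; limma adjusted p = 0.011). The HAT3 call was lost without replicate 3, at a ratio of -0.28 (limma adjusted p = 0.068). It was also lost with median centring, where the ratio was -0.09 (limma adjusted p = 0.35), or -0.23 relative to the median of all genes. WRKY53, a regulator of leaf senescence, ranged from -0.23 on replicate 1 to 1.51 on replicate 2 and did not pass (mean 0.70, SE 0.24, SD 0.73; limma adjusted p = 0.093). Its ratio was 0.99 without replicate 1 (limma adjusted p = 0.046), 0.46 without replicate 2 (0.28 as the adjusted p) and 0.40 without replicate 3 (0.29 as the adjusted p). With median centring it was 0.84 (limma adjusted p = 0.0099). The auxin synthesis gene TAA1 was at -0.14 (limma adjusted p = 0.18).

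Genes of the small RNA pathways that restrict HD-ZIP III and ARF transcripts were close to 0. Of 12 such genes DCL4, which makes trans-acting small RNAs, rose by 0.21 (limma adjusted p = 0.038) and 11 did not pass, with a median of 0.05. Over all genes tested 15% were called higher, so 1 such call is no excess. The DCL4 call was lost without any 1 of the 4 arrays (0.17 to 0.25, limma adjusted p = 0.062 to 0.18) and with the processed signals or the series table (0.23, limma adjusted p = 0.093 in each). HEN1, which methylates small RNAs, was at -0.10 on average and below 0 on 4 of 4 arrays (limma adjusted p = 0.077), and SGS3, a cofactor of small RNA amplification, was at 0.13 (limma adjusted p = 0.12). AGO10, which sequesters the microRNAs of HD-ZIP III transcripts, was at 0.03 (limma adjusted p = 0.67).

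Of 11 procambium and xylem genes, where HB8 and CNA act, 2 rose and 9 did not pass, with a median of 0.07, near the 15% of all genes tested. The genes that rose were LHW, a bHLH gene of vascular divisions, at 0.31, and MP, the auxin response factor gene that switches on HB8, at 0.32 (limma adjusted p = 0.00995 and 0.013). Both calls were lost without replicate 3, at 0.30 and 0.28 (limma adjusted p = 0.063 and 0.074), and PXY, a receptor kinase gene of procambium, was at 0.12 (limma adjusted p = 0.068). The LHW ratios were 0.18 and 0.23 where ang3 was in Cy5 and 0.37 and 0.45 where it was in Cy3. LOB, the founding member of the AS2 family, rose by 0.33 (limma adjusted p = 0.014), and lost the call without replicate 3, at 0.30 (limma adjusted p = 0.079).

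**Figure D5:**
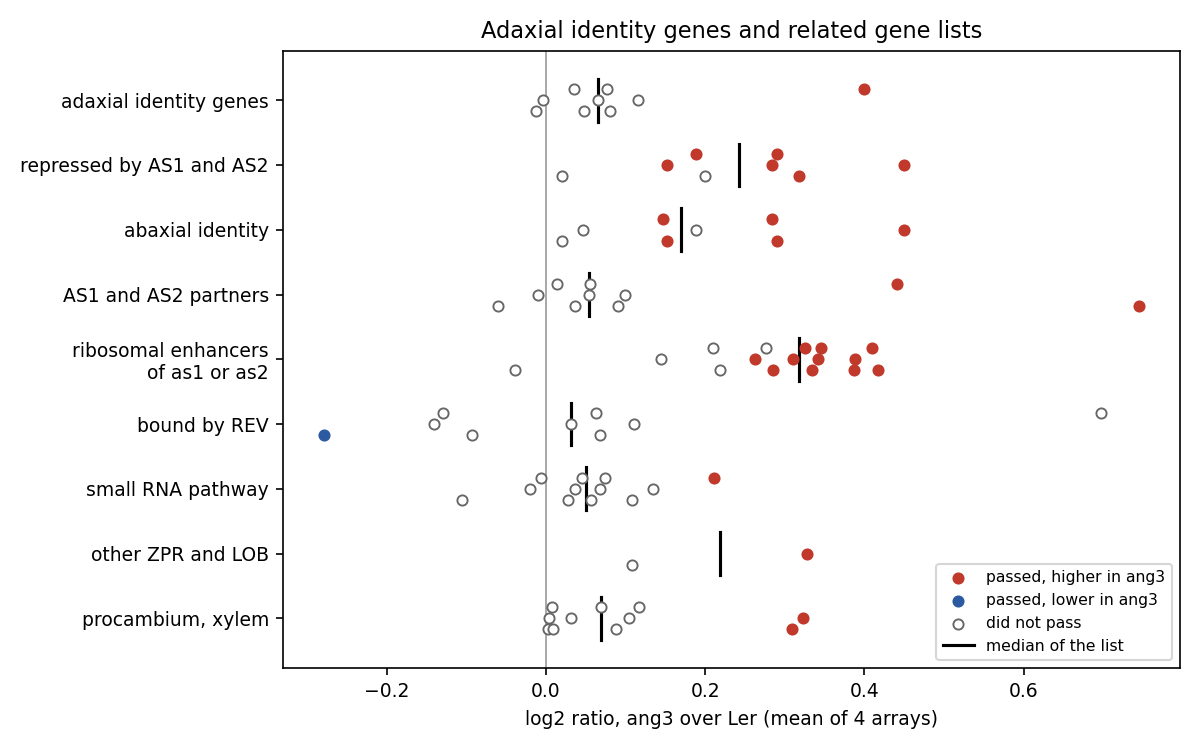
Each point is 1 tested gene, placed by its mean log2 ratio of ang3 over Ler on 4 arrays (horizontal axis) in the row of its gene list, filled where the limma adjusted p was under 0.05, and a black bar marks the list median. The 9 adaxial genes cluster near 0 apart from AS1, while 6 of 8 genes repressed by AS1 and AS2 and 11 of 16 ribosomal enhancer genes are filled on the right.

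Across the series 19224 to 21332 probes per array and genotype were well above background. Ratios of all genes correlated between arrays with r from 0.387 to 0.733, a description across genes that are not independent replicates. Replicate 1 gave the lowest values, 0.387, 0.584 and 0.513 with replicates 2, 3 and 4, while pairs without it gave 0.692 to 0.733. Its ratios over all genes also had the smallest SD (0.198, against 0.285 to 0.335 on the others). All 4 green leaf markers were well above background, as were STM and CLV1 of the meristem, whereas WUS and CLV3 were not above background on any array. STM rose by 0.36 (limma adjusted p = 0.0088), CLV1 was at -0.18 (limma adjusted p = 0.058), and LHCB1.3 and RBCS1A of the green leaf fell by 0.44 and 0.17. The log2 of the summed signals of the 4 green leaf markers was 17.8 to 18.1 in ang3 and 18.0 to 18.2 in Ler. That of the 4 meristem markers was 12.5 to 12.6 in ang3 and 12.6 to 12.7 in Ler. The meristem sum is mostly CLV1 (12.3 in ang3 and 12.5 in Ler), as STM was at 9.31 and 8.94, so it does not follow STM. None of 5 root or 3 seed markers was above background on every array. Of the root markers, EXP7 and COBL9 were above background on 3 arrays in ang3, and on 1 and 2 in Ler. Neither passed (0.09 and 0.07, limma adjusted p = 0.11 and 0.55), and PRP3, AGP30 and RHD6 were above background on no array. Each seed marker was above background on 1 array per genotype. Of 4 flower markers, PI was above background on 3 arrays in ang3 and 4 in Ler and fell by 0.25 (limma adjusted p = 0.031), AP3 did not pass (-0.07, limma adjusted p = 0.32), and AP1 and AG were above background on no ang3 array and 1 Ler array each. The part of tissue composition in the AS1 and list results was not tested.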

How the data were processed

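The 4 two-colour Agilent arrays each held ang3 and Ler RNA (1 µg per sample per the labels). Spots were read by Feature Extraction 10.1.1.1, per the file headers and the submitters' processing notes, and the deposited median spot and background intensity values are not normalized. The deposited processed intensity values are background-subtracted and dye-normalized within each array. The authors' deposited log10 ratio is of processed red over green, and each deposited p-value comes from the error model of 1 array. The authors' deposited series table holds log2 ratios of 32149 probes, turned to ang3 over Ler (r and slope of 1 against the scanner values) and not centred (column medians -0.045, 0.026, 0.0077 and -0.097). No genome build is named, so no coordinates are given.

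Analysis used R 4.3.3, limma 3.58.1, Python 3.11.15 and matplotlib 3.10.9. Median signals were corrected by normexp (offset 50) and normalized by loess, with control spots and non-uniform spots at weight 0. The 20538 probes flagged well above background in at least 1 genotype on 3 or more of the 4 arrays were tested, and the brightest probe stood for a locus. The model (lmFit, eBayes) held genotype and a dye intercept, with 2 residual and 3.03 prior degrees of freedom and Benjamini-Hochberg adjustment. SE rests on the spread within a dye orientation and can be far below SD, the spread of the 4 ratios. Levels are log2 channel values after loess and Aquantile, and levels of different probes are not comparable. The members and lists were chosen with earlier results of these data known, so lists are described by counts and medians only. Named genes were all members, up to 3 per list with the smallest p, and the 3 nearest in ratio to the member with the smallest p. A run of the fit on simulated data used the same noise level for every spot, unlike the real arrays, and no result here rests on it. All arrays came from 1 slide, so no batch could be tested.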

Additional observations from a re-analysis of the deposited data

How the results depend on the processing

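The number of arrays limits every value, and SE from 2 residual degrees of freedom is itself uncertain. Of the 9 adaxial genes, the count called higher was 1 with normexp at offset 0, the processed signals, the authors' series table, equalised scale, no dye term, no filter, the stricter filter and the mean of probes. It was 7 with median centring, 0 to 1 when each array was left out, and 0 under the authors' rule on each of the 4 arrays. Of all genes tested, 34.5% were called higher with median centring and 1.86% to 8.33% when each array was left out. In the settings with a count of 1 named first, that share ran from 7.23% to 15.8%. The filter settings and the mean of probes leave adaxial ratios unchanged, as each gene has 1 probe above background on all 4 arrays. The series table repeats the ratios of the processed signals, so these settings are not independent checks. No adaxial gene was called lower in any setting. The related genes called higher were 45 of 71 with median centring and 3 to 22 when each array was left out, against 24 as reported. These counts moved along with the shares of all genes given above. Those called lower were 0 with median centring and 0 to 1 when each array was left out. Ratios that changed sign were PHB (0.17), TAA1 (0.051) and HEN1 (0.062) with median centring, CNA with the processed signals (-0.015) and the series table (-0.015), and ZPR3, at -0.069 to 0.061 when each array was left out. All of these did not pass before or after. Median centring moved the median of all genes by over 0.1, and ZPR3 (-0.015) and ZPR2 (0.11) stayed near their reported values. The cause of the changes was not tested. Each ratio sets ang3 over Ler on the same array, so the reported fit is already paired within arrays. No paired analysis was possible beyond that because there is 1 group of ratios. All arrays share 1 slide, so no slide block was run.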

Other observations

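ZPR3 gave -0.19 with the processed signals and -0.0039 with normexp and loess, without passing in either (limma adjusted p = 0.31 and 0.96). Its deposited ratios were -0.18, 0.22, -0.37 and -0.44 on replicates 1 to 4, a wider range than that after normexp. The ZPR2 ratio was 0.46 with the processed signals (limma adjusted p = 0.025), against 0.11 after normexp.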
